A study of Mus musculus with 9 samples.

Results

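The genes described here are 41 type I interferon-stimulated genes, chosen by name from the genes that interferon-α and interferon-β are known to induce, in LT-HSCs (long-term hematopoietic stem cells) with and without class IA PI3K. All 41 were found among the 47643 genes of the count table, and all 41 passed the filter on low counts that left 18205 genes for testing. RNA was sequenced from 9 libraries of donor-derived LT-HSCs, 3 for each of 3 donor genotypes on the C57BL/6 strain, sorted from the bone marrow of lethally irradiated B6.SJL recipients as cells that were Lin-, cKit+, Sca1+, Flk2-, CD48- and CD150+. WT donors carried Mx1-Cre. TKO donors carried Mx1-Cre with floxed Pik3ca (lox/lox), floxed Pik3cb (lox/lox) and Pik3cd-/-, and δKO donors, used as littermate controls, had the same 3 PI3K alleles without Mx1-Cre, so that Pik3cd alone was lost. Recipients in every group received pIpC (2 injections of 250 μg, 48 hours apart), and the cells were taken 4 weeks later. Recipients were 6 to 8 weeks old at transplantation, and donor ages are given only for the transplants in general, as 6 to 8 weeks in the methods and 4 to 6 weeks elsewhere. According to the methods, bone marrow cells from the 7 recipients of a group were pooled before staining, and nothing in the labels ties the 3 libraries of a genotype to separate donors, so the p-values below measure only the spread between these libraries. Each genotype held libraries with and without RNA of Y-linked genes (values below), so the 3 libraries of a genotype were not repeats of 1 pool, and how many donors or recipients each holds is not known.

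Type I interferons bind the receptor pair Ifnar1 and Ifnar2, and the kinases Jak1 and Tyk2 then phosphorylate STAT proteins, among them Stat2, which joins Irf9 in the factor ISGF3. ISGF3 binds interferon-stimulated response elements in promoters and induces genes that sense foreign RNA, block viral replication or tune the pathway itself, among them Usp18, an inhibitor at the receptor. In HSCs, acute interferon-α is known to drive quiescent cells into cycle, and some interferon-stimulated genes are known to be expressed by stem cells without infection. pIpC is a double-stranded RNA analog that induces type I interferon, and the Mx1 promoter that drives the Cre is itself interferon-inducible. Every group therefore received an interferon inducer, while Cre was carried by WT and TKO cells and not by δKO cells. Mx1-Cre is not restricted to HSCs and acts in other interferon-responsive donor cells too.

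The promoters of the group were searched for the core of the interferon-stimulated response element, GAAANNGAAA, on both strands. Windows of 300 bases (250 before and 50 after the start of a transcript) came from RefSeq on GRCm38.p6, and 30 of the 41 genes had one. Usp18, Dhx58, Zbp1, Oas2, Mx1, Mx2, Ly6e, Parp9, Parp14, Ifi27 and Rtp4 had none in the table. The core was found for 13 of the 30 genes (43.3%) and for 1079 of all 27025 genes with a window (3.99%). The gamma-activated site TTCNNNGAA, which reads the same on both strands, was found for 8 of the 30 genes (26.7%) and for 9.55% of all genes. Ifitm1 and Oasl2, which are described below, had no match to the core in this window, and the matches of Ddx58 and Ifitm3 lay at or after the start. Stretches before the start are shown for Isg15 and Stat2, whose values are given below, and for Ifit1, in which the core occurs in separate copies. Capitals mark the matched bases, and each stretch is written 5′ to 3′ on the strand of its gene.
Isg15: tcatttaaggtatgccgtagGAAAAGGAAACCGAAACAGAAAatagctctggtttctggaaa
Ifit1: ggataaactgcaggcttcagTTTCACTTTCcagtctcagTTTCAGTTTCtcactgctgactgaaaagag
Stat2: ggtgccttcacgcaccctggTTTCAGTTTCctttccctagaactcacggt
The Isg15 stretch is chr4:156200855-156200916 on the minus strand and holds 3 overlapping matches from 78 to 57 bases before the start. The Ifit1 stretch is chr19:34640765-34640833 on the plus strand and holds 2 matches from 104 to 76 bases before the start, both as the reverse complement TTTCNNTTTC. The Stat2 stretch is chr10:128270256-128270305 on the plus strand, with 1 match from 222 to 213 bases before the start, also as the reverse complement.

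The libraries differed in depth, in Xist and in markers of other cells, both within and between genotypes. Totals ran from 31300343 to 60386097 counts a library, and 18180 to 22703 genes had at least 1 count, with the fewest in δKO replicate 1, the unnumbered δKO library (18500), whose number in the table is absent from the labels, and TKO replicate 2 (19703). Xist was at 3227 to 6393 CPM (counts scaled to a common library size, with edgeR's TMM factors) in 5 libraries, 1 WT, 2 δKO and 2 TKO, and at 32.1 to 59.5 CPM in the other 4. Ddx3y, a Y-linked gene, was at 0.160 to 0.359 CPM in the former and 30.5 to 42.1 CPM in the latter. Pik3cb, 1 of the targets of Cre, was at 63.6, 44.6 and 60.4 CPM in WT replicates 1, 2 and 3, at 33.5, 25.5 and 33.9 CPM in TKO replicates 1, 2 and 3, and at 101.0, 33.2 and 68.8 CPM in δKO replicates 1 and 2 and the unnumbered library. Pik3ca was at 45.8 to 65.0 CPM in WT and 52.8 to 68.0 CPM in TKO, and reads were counted over whole genes, so that loss of single exons was not seen. Pik3cd, deleted in the germline of TKO and δKO donors, was at 98.2 to 139 CPM in WT, 38.4 to 91.2 in δKO and 71.2 to 73.5 in TKO. All 8 genes of a list of LT-HSC markers were detected in every library and summed to 1184 to 1368 CPM in WT, 1119 to 2466 in δKO and 1576 to 1954 in TKO. All 10 genes of a neutrophil and granule list (S100a8, Ngp, Mpo and others) were also detected in every library and summed to 5254 to 12280 CPM in WT, 280.1 to 12120 in δKO and 169 to 3239 in TKO. Flt3 and Cd48, the genes of 2 markers that the sort excludes, summed to 50.2 to 133 CPM in WT, 12.9 to 76.3 in δKO and 26.3 to 49.0 in TKO. A T and NK cell list of 6 genes, with Cd3e and Cd3g at 0 in every library, summed to 79.9 to 232 CPM in WT, 3.87 to 193 in δKO and 25.0 to 67.1 in TKO, most of it from Nkg7. A monocyte list of 7 genes summed to 105 to 335 CPM in WT, 24.5 to 269.8 in δKO and 18.2 to 155 in TKO, and a plasmacytoid dendritic cell list of 5 genes, the cells known for making interferon, to at most 10.5 CPM in any library, with Klk1 at 0 in all 9. In bulk RNA, fewer cells of a type and less RNA per cell cannot be told apart.

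Most of the interferon-stimulated genes were expressed in LT-HSCs of every genotype 4 weeks after pIpC. Per length of exon, 32 of the 41 lay above the median of the 18139 tested genes with a known length (3.25 CPM per kb of exon, mean of 9 libraries). The highest level was that of Ifitm3, a membrane protein that restricts viral entry, at 431 ± 129 CPM per kb in WT, 395 ± 166 in δKO and 681 ± 110.5 in TKO (mean ± SD, n = 3 in each). Next came Ly6e, a GPI-anchored surface protein, with a mean of 128 CPM per kb over the 9 libraries, and Ifitm1, a relative of Ifitm3, with 115. Ifitm1 lay below Ly6e in WT (63.0 ± 21.1 against 146 ± 37.2 CPM per kb) and above it in TKO (219.8 ± 78.5 against 121 ± 14.8). The lowest were Mx2, a dynamin-like GTPase, at 0.588 CPM per kb, and Ifit3, which binds foreign RNA together with Ifit1, at 0.354. Ifit3 had 0 to 40 counts in 8 of the libraries and 186 in TKO replicate 1, and 51.2% of its 50-base words also occur in Ifit3b, so that its counts are uncertain. The same holds for Oas1a, which shares 57.6% of its words with Oas1g and Oas1b.

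**Figure D1:**
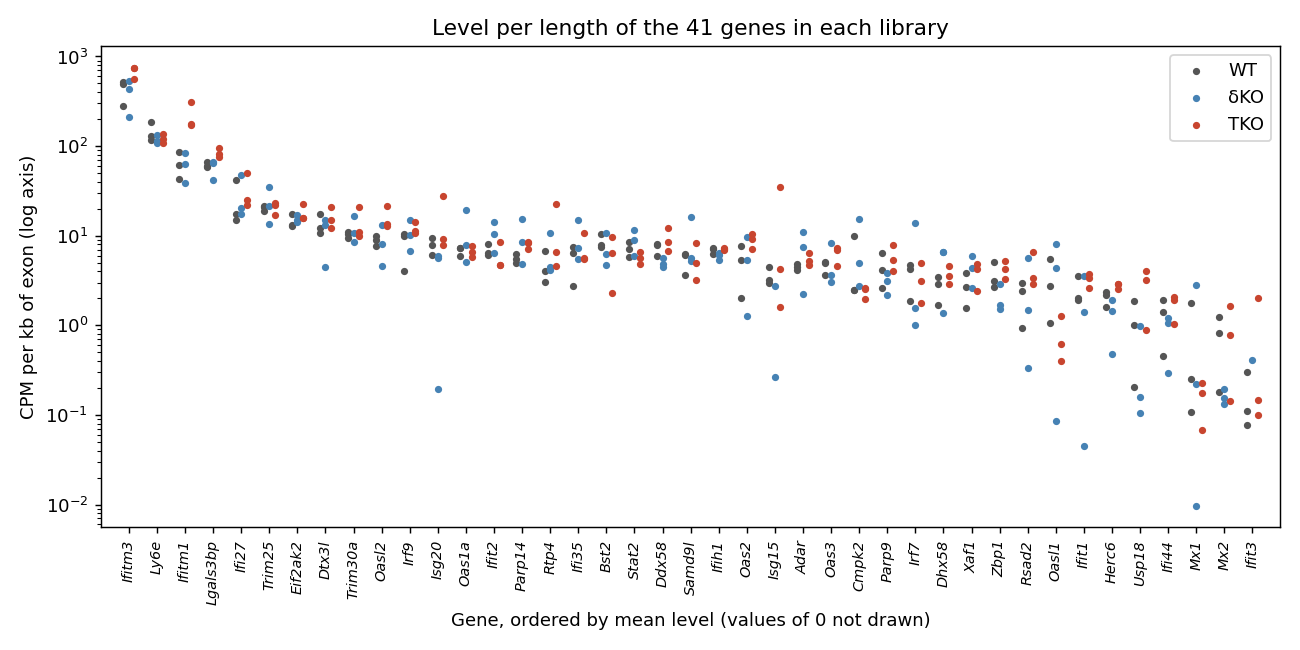
Level of each of the 41 genes in each library, in CPM per kb of exon on a log axis, ordered by the mean of the 9 libraries, with WT in gray, δKO in blue and TKO in red. The order runs from Ifitm3 (mean 502.5) to Ifit3 (0.354), and the points of Ifitm1 in TKO stand above those of WT and δKO.

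In TKO LT-HSCs, Ifitm1 was 3.49-fold the WT level and 3.55-fold the δKO level, and the rest of the group showed no common shift of that size. No member passed the test in any of the 3 comparisons (quasi-likelihood test in edgeR, Benjamini-Hochberg adjusted over all 18205 genes, called at an adjusted p under 0.05 and over 2-fold), with 0 of 41 called in each. The background was as low, at 0.00549% of all genes in TKO against WT, 0.00% in TKO against δKO and 0.00549% in δKO against WT. With DESeq2's Wald test, which gave a p to 40 of the 41 genes, Ifitm1 was called in TKO against WT (log2 fold change 1.81, adjusted p = 0.0126 on all 9 libraries and 0.000124 on the groups compared) and in TKO against δKO (1.82, adjusted p = 0.00393 and 0.0140), and no other member was called in any comparison. DESeq2 called 0.466% and 2.12% of all genes in TKO against WT, 2.01% and 1.05% in TKO against δKO, and 0.727% and 0.754% in δKO against WT, on all 9 libraries and on the groups compared.

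Between TKO and WT, 32 of the 41 genes had a log2 fold change above 0 (78.0%, against 51.2% of all genes), with a median of 0.40 where the median of all genes was 0.02. The quartiles of the members were 0.05 and 0.57. Without TKO replicate 2, the median was 0.12 and 29 members were above 0. An unadjusted p under 0.05 was found for 2 members, Oasl2 and Ifitm1, both higher in TKO (4.88% of members, against 1.68% of all genes higher and 2.50% lower), and for 0 lower. With each library left out, 1 to 3 members were higher, and 0 were lower except without the unnumbered δKO library, where 1 was. Fitted on the WT and TKO libraries alone, edgeR gave 5 higher and 1 lower and DESeq2 gave 8 and 1, and DESeq2 on all 9 libraries gave 1 and 0. The 3 TKO libraries were each higher than every WT library for 7 members (17.1%, against 6.88% of all genes), which were Ifitm1, Ifitm3, Lgals3bp, Herc6, Oasl2, Irf9 and Parp14, and below them for 0 (7.47% of all genes).

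Between TKO and δKO, 26 of the 41 genes had a log2 fold change above 0 (63.4%, against 47.2% of all genes), with a median of 0.25 where that of all genes was −0.06. Upper-quartile scaling moved the median of all genes in this comparison by 0.14, to 0.08, and that of the members to 0.40. Without TKO replicate 2 the members' median was 0.05, and without δKO replicate 1 it was 0.52. An unadjusted p under 0.05 was found for 7 members higher in TKO (Ddx58, Isg15, Oasl2, Usp18, Ifitm1, Ifitm3 and Lgals3bp, 17.1%, against 4.60% of all genes) and for 1 lower (Cmpk2, 2.44%, against 5.56%). The TKO libraries lay above all δKO libraries for 9 members (22.0%, against 6.98% of all genes) and below them for Cmpk2 (2.44%, against 4.74%). The 9 were Ifih1, Zbp1, Ddx58, Herc6, Isg20, Ifitm1, Ifitm3, Lgals3bp and Parp9. These counts of unadjusted p under 0.05 depended on single libraries. They were 11 higher and 0 lower without δKO replicate 1 (with 35 members above 0), 7 and 4 without δKO replicate 2, 3 and 3 without the unnumbered δKO library, and 3 and 0 without TKO replicate 2. Without WT replicate 2 or 3 they were 4 and 1, and without TKO replicate 3 they were 5 and 0. Fitted on the TKO and δKO libraries alone, edgeR gave 3 and 1 and DESeq2 gave 7 and 2, and DESeq2 on all 9 libraries gave 10 and 2.

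Between δKO and WT, 22 of the 41 genes were above 0 and 19 below, with a median of 0.11 where that of all genes was 0.05. With upper-quartile scaling, which moved the median of all genes by −0.15 to −0.10, the members' median was −0.08, and without δKO replicate 1 it was −0.26. No member had an unadjusted p under 0.05 in either direction (3.65% of all genes were higher and 3.36% lower), and DESeq2 on all 9 libraries gave 0 higher and 1 lower. Without δKO replicate 2 the counts were 3 higher and 3 lower, without δKO replicate 1 they were 0 and 2, and without WT replicate 3 they were 1 and 0. The δKO libraries lay below all WT libraries for 3 members, Ddx58, Isg15 and Isg20 (7.32%, against 7.39% of all genes), and above them for 0 (4.13% of all genes). The comparisons of TKO with WT and with δKO share the TKO libraries, and the others share WT or δKO libraries, so the 3 sets of counts are not independent of each other.

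**Figure D2:**
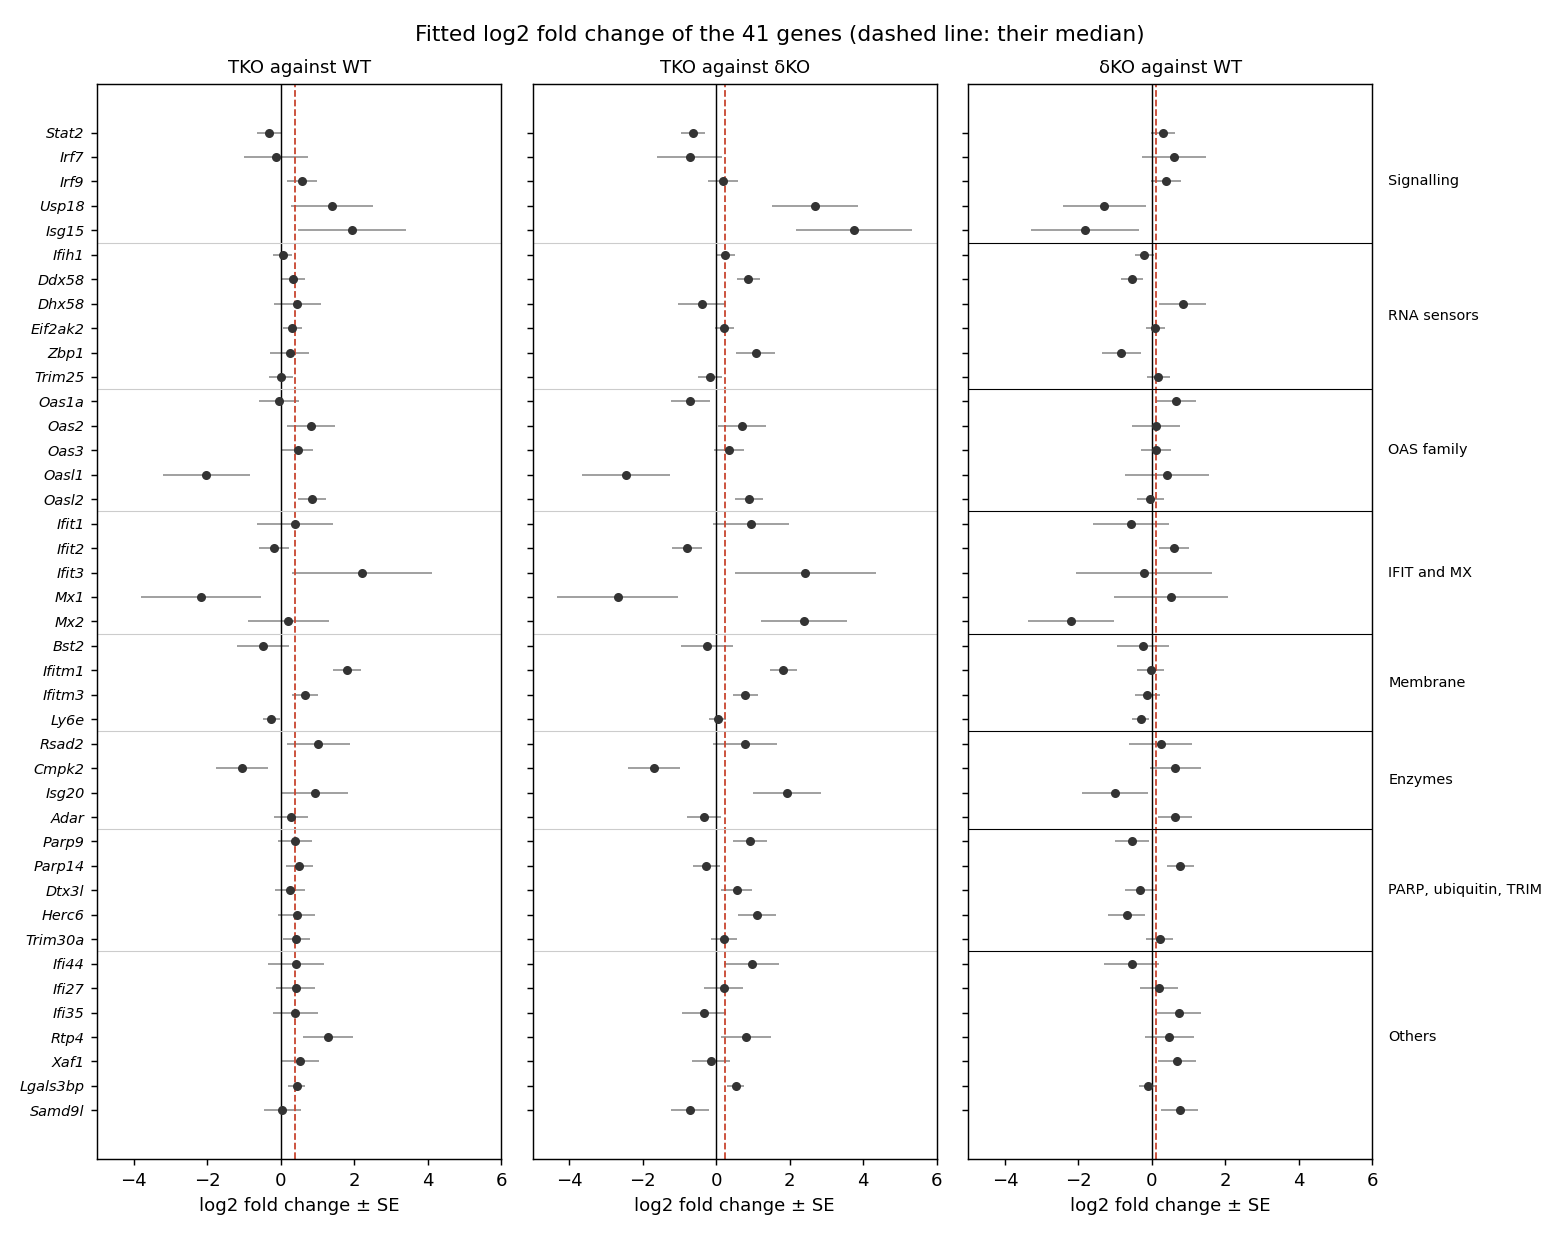
Fitted log2 fold change of each of the 41 genes with its standard error, ordered by role, in 3 panels for TKO against WT, for TKO against δKO and for δKO against WT. The dashed line is the median of the 41 genes, at 0.40, 0.25 and 0.11, and Ifitm1 stands at 1.80 and 1.83 in the comparisons of TKO with a short standard error.

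The genes upstream of the group came from a list of 37 genes of the interferon pathway, of which 27 passed the filter. Of the 10 interferon ligands listed, 8 (Ifna1, Ifna2, Ifna4, Ifna5, Ifnb1, Ifne, Ifnl3 and Ifng) had 0 counts in every library, Ifnl2 had 1 count in all, and Ifnk, an interferon known mainly from keratinocytes, had 0 to 62 counts. The receptor subunits and kinases were expressed throughout. Ifnar1 was at 42.5 to 53.1 CPM in WT, 39.0 to 88.7 in δKO and 49.9 to 51.3 in TKO, and Ifnar2 at 50.3 to 80.9, 55.8 to 104.4 and 43.6 to 68.3 CPM. Jak1 was at 212 to 287 CPM in WT, 252 to 399 in δKO and 308 to 371 in TKO, so that WT and TKO did not overlap, whereas Tyk2 overlapped at 38.6 to 66.8, 31.9 to 38.8 and 33.2 to 43.3 CPM.

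Of the 27 pathway genes tested, 0 were called in any comparison. In TKO against WT, 18 were above 0 and 9 below (median log2 fold change 0.14, where 51.2% of all genes were above 0), and 1 had an unadjusted p under 0.05 and was higher, where 1.68% of all genes were higher and 2.50% lower at that p. This was Samhd1, a dNTP hydrolase, at 118, 164 and 162 CPM in WT replicates 1, 2 and 3 and 207, 249 and 204 CPM in TKO replicates 1, 2 and 3 (log2 fold change 0.57, standard error [SE] 0.26, adjusted p = 1.00). In TKO against δKO (4.60% of all genes higher and 5.56% lower) the only one was Mavs, the adaptor of the RNA sensors, at 20.7, 17.1 and 27.2 CPM in TKO replicates and 7.42, 12.4 and 9.77 CPM in δKO libraries (1.13, SE 0.48, adjusted p = 0.473). In δKO against WT (3.65% of all genes higher and 3.36% lower) there were 2 in opposite directions, Tlr7, an endosomal RNA receptor, with a log2 fold change of −3.33 (SE 1.26) at 0.0399 to 0.427 CPM in δKO and 1.95 to 3.89 CPM in WT, and Tbk1, a kinase of the sensing pathway, with 0.89 (SE 0.39) and 54.7 to 166 CPM in δKO against 47.6 to 61.8 in WT. Both had an adjusted p of 0.699.

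Among the 5 signalling members, Stat2 and Irf9 are parts of ISGF3, and Irf7 is the factor that amplifies interferon production. Stat2 (mm10 chromosome 10, 128270559 to 128292849) was at 33.8, 50.6 and 41.6 CPM in WT replicates 1, 2 and 3, at 68.0, 35.2 and 52.9 CPM in δKO replicates 1 and 2 and the unnumbered library, and at 33.3, 28.4 and 39.2 CPM in TKO replicates 1, 2 and 3. Irf9 (chromosome 14, 55603571 to 55610030) was at 21.5, 53.9 and 55.5 CPM in WT, 54.2, 36.4 and 80.9 CPM in δKO, and 57.9, 76.1 and 60.3 CPM in TKO, in the same order of libraries. The TKO libraries of Irf9 lay above those of WT, while the 3 groups of Stat2 overlapped. Irf7 (chromosome 7, 141262706 to 141266481) was at 15.9, 7.06 and 17.8 CPM in WT, 52.4, 3.76 and 5.82 CPM in δKO, and 6.71, 18.9 and 11.8 CPM in TKO. Its δKO libraries held both the highest and the lowest value of the 9, and TKO lay within the range of δKO.

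Usp18 and Isg15 are linked, as Usp18 removes the ubiquitin-like protein Isg15 from its targets as well as restraining the receptor. Usp18 (chromosome 6, 121245906 to 121270917) was at 0.571, 2.81 and 5.20 CPM in WT replicates 1, 2 and 3, at 0.439, 2.74 and 0.295 CPM in δKO replicates 1 and 2 and the unnumbered library, and at 2.47, 11.2 and 8.98 CPM in TKO replicates 1, 2 and 3. TKO replicates 2 and 3 were the highest of the 9 libraries, and TKO replicate 1 lay within the range of both controls. Isg15 (chromosome 4, 156199424 to 156200818) was at 2.27, 2.45 and 3.39 CPM in WT, 0.200, 2.07 and 0 CPM in δKO, and 1.22, 26.7 and 3.22 CPM in TKO, which for δKO were 5, 116 and 0 counts. TKO replicate 2 stood apart from all other libraries, TKO replicate 3 lay within the range of WT and TKO replicate 1 below it. The log2 fold change of Isg15 was 3.75 in TKO against δKO (SE 1.58, adjusted p = 0.467), 1.94 in TKO against WT (SE 1.46, adjusted p = 1.00) and −1.81 in δKO against WT (SE 1.47, adjusted p = 0.802). With single libraries left out, the first of these ranged from 1.53 (without TKO replicate 2) to 6.68 (without δKO replicate 2), and the fold rests on few counts in δKO.

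The 6 RNA and nucleic acid sensors were all above 0 in TKO against WT (51.2% of all genes were), with log2 fold changes between 0.01 and 0.45 (median 0.28), none of which passed the test. In TKO against δKO, 4 of these sensors were above 0 and 2 below, where 47.2% of all genes were above 0. Ddx58, which encodes the RNA helicase RIG-I (chromosome 4, 40203773 to 40239828), was at 41.5, 54.9 and 56.4 CPM in WT replicates 1, 2 and 3, at 31.4, 39.7 and 34.5 CPM in δKO replicates 1 and 2 and the unnumbered library, and at 47.7, 86.7 and 59.4 CPM in TKO replicates 1, 2 and 3. The δKO libraries lay below those of both other genotypes, while WT and TKO overlapped. For Ddx58 the log2 fold change was 0.88 in TKO against δKO (SE 0.31, adjusted p = 0.465), −0.53 in δKO against WT (SE 0.31, adjusted p = 0.725) and 0.34 in TKO against WT (SE 0.31, adjusted p = 1.00). Zbp1, a sensor of Z-form nucleic acids that can trigger cell death (chromosome 2, 173206612 to 173218923), was at 9.32, 11.0 and 17.9 CPM in WT, 10.2, 5.88 and 5.42 CPM in δKO, and 11.7, 18.6 and 14.9 CPM in TKO. Here too TKO lay above δKO without overlap and within or just above the range of WT. For Zbp1 the fitted value was −0.83 in δKO against WT (SE 0.54, adjusted p = 0.745), 1.07 in TKO against δKO (SE 0.54, adjusted p = 0.517) and 0.24 in TKO against WT (SE 0.53, adjusted p = 1.00). The first was −0.50 without WT replicate 3 and −0.47 with the replicate block. The other sensors, Ifih1 (MDA5), Dhx58 (LGP2), Eif2ak2 (the kinase PKR) and Trim25, a ubiquitin ligase that activates RIG-I, had log2 fold changes between −0.40 and 0.25 in TKO against δKO.

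Proteins of the OAS family bind double-stranded RNA, and the active ones make the oligoadenylates that switch on RNase L. Oasl2 (chromosome 5, 114896936 to 114912234) was at 49.1, 56.8 and 63.5 CPM in WT replicates 1, 2 and 3, at 84.3, 51.5 and 29.1 CPM in δKO replicates 1 and 2 and the unnumbered library, and at 82.5, 136.7 and 85.0 CPM in TKO replicates 1, 2 and 3. All 3 were higher in TKO than in any WT library, but δKO replicate 1 lay among them. Fitted over all libraries, Oasl2 had a fitted log2 fold change of 0.84 for TKO against WT (SE 0.38, adjusted p = 1.00), 0.88 in TKO against δKO (SE 0.38, adjusted p = 0.475) and −0.04 in δKO against WT (SE 0.38, adjusted p = 0.991). Oasl1, a paralog known to restrain Irf7 translation, had the opposite sign, at −2.03 in TKO against WT and −2.46 in TKO against δKO, and neither passed the test. Its values ran from 1.03 to 3.31 CPM in TKO, 2.77 to 14.4 in WT and 0.221 to 21.1 in δKO, so that all groups overlapped. Oas1a, Oas2 and Oas3 had log2 fold changes between −0.05 and 0.82 in TKO against WT.

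The IFIT and MX genes are often used as the readout of an interferon response, and Mx1, Mx2 and Ifit3 were the 3 lowest of the group per length. Mx1 (chromosome 16, 97447035 to 97462907), the source of the promoter that drives the Cre, was at 0.941, 6.71 and 0.406 CPM in WT replicates 1, 2 and 3, at 10.7, 0.837 and 0.0369 CPM in δKO replicates 1 and 2 and the unnumbered library, and at 0.860, 0.668 and 0.254 CPM in TKO replicates 1, 2 and 3. The highest values were those of 1 δKO and 1 WT library, and the 3 TKO libraries were all under 1 CPM. Mx2 (chromosome 16, 97535308 to 97560900) was at 4.50, 0.645 and 2.94 CPM in WT, 0.558, 0.712 and 0.479 CPM in δKO, and 2.81, 0.523 and 5.96 CPM in TKO. Each of WT and TKO thus had 1 library at the δKO level. In the fit, Mx2 had a fitted log2 fold change of −2.20 for δKO against WT (SE 1.16, adjusted p = 0.700), 2.40 in TKO against δKO (SE 1.17, adjusted p = 0.505) and 0.20 in TKO against WT (SE 1.11, adjusted p = 1.00). The first ranged from −2.67 to −1.61 with single libraries left out, and was −1.30 with genes detected as a covariate, −1.23 with Xist class as a covariate and −0.96 with the replicate block. Ifit1, Ifit2 and Ifit3 had no comparison in which their groups did not overlap. Ifit3 was at 0.134, 0.531 and 0.191 CPM in WT replicates 1, 2 and 3, at 0, 0.712 and 0 CPM in δKO replicates 1 and 2 and the unnumbered library, and at 3.56, 0.174 and 0.254 CPM in TKO replicates 1, 2 and 3.

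Of the 4 membrane effectors, Ifitm1 and Ifitm3 were higher in TKO than in both controls without overlap, and Ly6e and Bst2, the virus tether known as tetherin, were not. Ifitm1 (chromosome 7, 140967221 to 140969825) was at 47.1, 66.7 and 93.1 CPM in WT replicates 1, 2 and 3, at 68.8, 91.8 and 42.5 CPM in δKO replicates 1 and 2 and the unnumbered library, and at 193, 339.5 and 189 CPM in TKO replicates 1, 2 and 3. The lowest TKO library held more than the highest library of either control, and WT and δKO covered the same range. On the log2 scale, Ifitm1 differed by 1.80 in TKO against WT (SE 0.37, adjusted p = 1.00 with edgeR), 1.83 in TKO against δKO (SE 0.37, adjusted p = 0.465) and −0.03 in δKO against WT (SE 0.36, adjusted p = 0.995). Its unadjusted p of 0.000450 and 0.000404 in the comparisons of TKO was the smallest of the 41 genes in each. The log2 fold change stayed between 1.47 and 2.08 against WT and between 1.49 and 2.11 against δKO over 19 alternatives each, with the lowest value of both without TKO replicate 2. Over the same alternatives its adjusted p ranged from 0.000124 to 1.00 against WT and from 0.00393 to 0.946 against δKO, and it was under 0.05 with DESeq2 alone.

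Ifitm3 (chromosome 7, 141009586 to 141010770) was at 192, 352 and 333 CPM in WT replicates 1, 2 and 3, at 364, 296 and 144 CPM in δKO replicates 1 and 2 and the unnumbered library, and at 506, 504 and 375 CPM in TKO replicates 1, 2 and 3. The gap between the groups was small, 375 CPM in the lowest TKO library against 364 in δKO replicate 1. Ifitm3 had a fitted log2 fold change of 0.66 for TKO against WT (SE 0.34, adjusted p = 1.00), 0.79 in TKO against δKO (SE 0.34, adjusted p = 0.478) and −0.13 in δKO against WT (SE 0.34, adjusted p = 0.961). Of the 50-base words of Ifitm3, 10% also occur in Ifitm1 or Gm7676, and of those of Ifitm1, 5.02% occur in Ifitm3 or Gm7676, so that part of their counts is uncertain. Ly6e was at 710.3, 496 and 445 CPM in WT, 409.5, 501 and 429 CPM in δKO, and 448, 520.3 and 410.2 CPM in TKO, with all groups overlapping.

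Some library measures differed between TKO and WT, as did Ifitm1 and Ifitm3. The neutrophil and granule list, the T and NK cell list and the sum of Flt3 and Cd48 were lower in all TKO than in all WT libraries. The LT-HSC markers were higher in all TKO than in all WT libraries. Between TKO and δKO each of these sums overlapped. TKO replicate 2, the highest in Ifitm1 (339.5 CPM), had the highest neutrophil sum (3239 CPM) and the lowest LT-HSC sum (1576 CPM) of the TKO libraries. The part of any of these measures in these results was not tested. In δKO replicate 1, which had 280.1 CPM of the neutrophil list and the highest LT-HSC sum of all libraries (2466 CPM), Ifitm1 was at 68.8 CPM, within the range of WT, whereas Ifitm3 was at 364 CPM, above all WT libraries and close to the lowest TKO library (375). Among the 5 libraries with high Xist, Ifitm1 was at 66.7 CPM in WT, 68.8 and 91.8 in δKO and 193 and 339.5 in TKO, and among the other 4 at 47.1 and 93.1 in WT, 42.5 in δKO and 189 in TKO. Ifitm3 was at 352 CPM in WT, 364 and 296 in δKO and 506 and 504 in TKO among the former, and at 192 and 333 in WT, 144 in δKO and 375 in TKO among the latter. With Xist class as a covariate, its log2 fold change for TKO over WT was 0.44 in place of 0.66, and without WT replicate 1 it was 0.43.

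**Figure D3:**
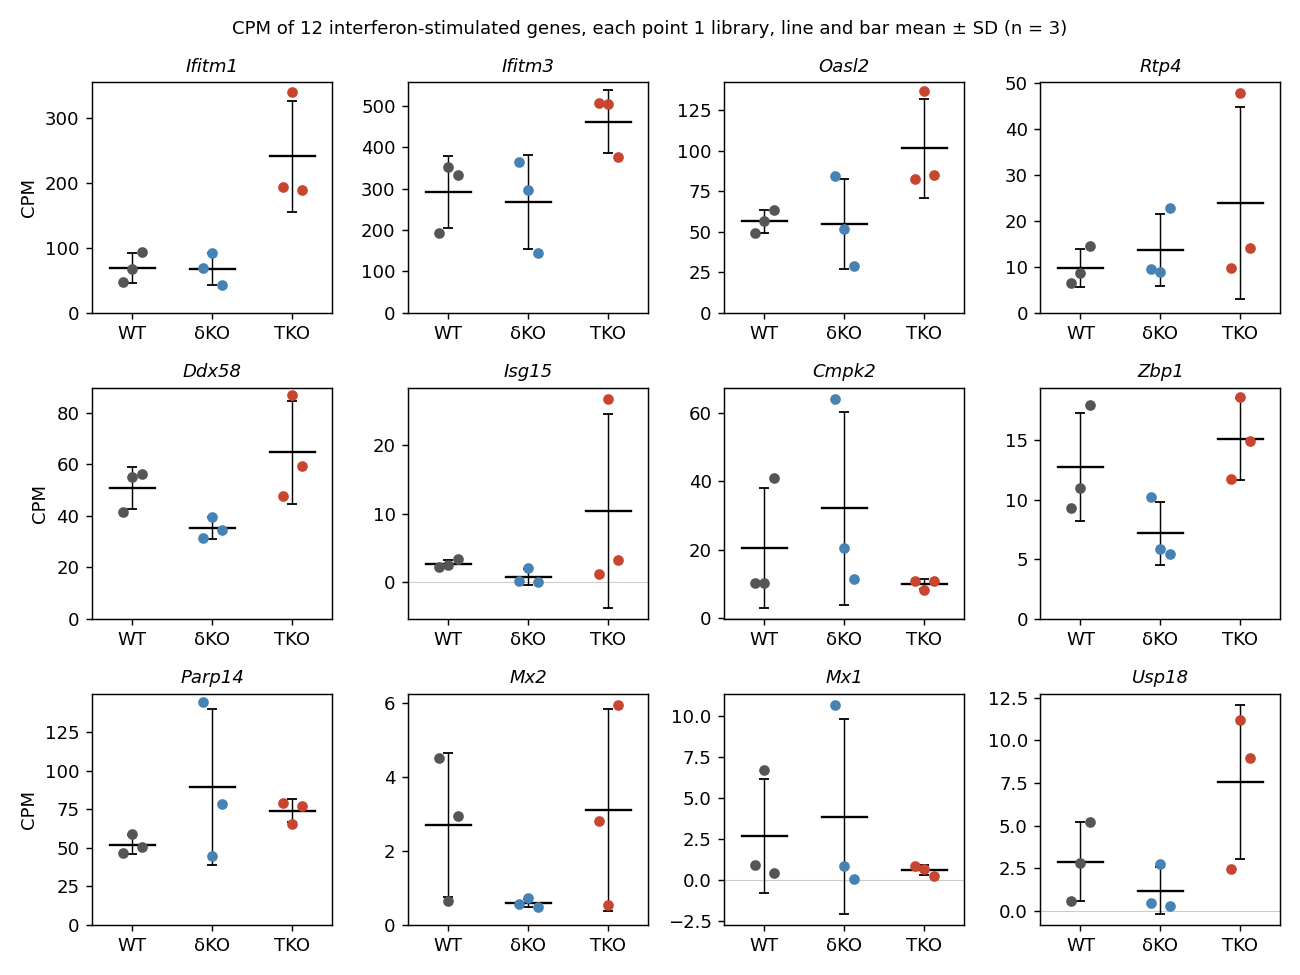
CPM of 12 of the genes in each library on linear axes, with 1 point per library and the mean ± SD of each genotype (n = 3). The 3 TKO points of Ifitm1 lie between 189 and 339.5 CPM, above all others, whereas the Isg15 and Rtp4 means in TKO are set by 1 library.

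The enzymes of the group act on nucleotides and RNA. Cmpk2, a mitochondrial nucleotide kinase (chromosome 12, 26469204 to 26479837), was at 10.3, 10.3 and 40.9 CPM in WT replicates 1, 2 and 3, at 64.2, 20.6 and 11.4 CPM in δKO replicates 1 and 2 and the unnumbered library, and at 10.7, 8.11 and 10.8 CPM in TKO replicates 1, 2 and 3. It was the only member whose TKO libraries lay below all δKO libraries, and they lay at the level of WT replicates 1 and 2. Cmpk2 had a fitted log2 fold change of −1.70 for TKO against δKO (SE 0.72, adjusted p = 0.467), −1.05 in TKO against WT (SE 0.70, adjusted p = 1.00) and 0.65 in δKO against WT (SE 0.70, adjusted p = 0.863). Without δKO replicate 1, the first was −0.70. Rsad2 (viperin), the neighbor of Cmpk2 on chromosome 12, had log2 fold changes of the other sign in TKO, with 12.5 to 28.6 CPM in TKO, 4.06 to 12.9 in WT and 1.44 to 24.7 in δKO. Isg20, an RNA exonuclease, ran from 14.5 to 51.2 CPM in TKO, 11.2 to 17.7 in WT and 0.359 to 11.1 in δKO. Adar, the RNA-editing enzyme, of whose exon bases 16.8% overlap Chrnb2 on the other strand, ran from 38.4 to 52.3 CPM in TKO, 33.6 to 39.6 in WT and 18.1 to 89.8 in δKO.

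All 5 genes of the PARP, ubiquitin and TRIM group were above 0 in TKO against WT (51.2% of all genes were), with log2 fold changes between 0.25 and 0.51, and none passed the test. In TKO against δKO, 4 of the 5 were above 0 and 1 below, where 47.2% of all genes were above 0. Parp14, an ADP-ribosyltransferase (chromosome 16, 35832874 to 35871544), was at 46.4, 58.8 and 50.6 CPM in WT replicates 1, 2 and 3, at 144, 44.7 and 78.6 CPM in δKO replicates 1 and 2 and the unnumbered library, and at 79.1, 65.4 and 77.2 CPM in TKO replicates 1, 2 and 3. The TKO libraries lay above WT and inside the wide range of δKO. Parp14 had a fitted log2 fold change of 0.78 for δKO against WT (SE 0.37, adjusted p = 0.699), 0.51 in TKO against WT (SE 0.37, adjusted p = 1.00) and −0.27 in TKO against δKO (SE 0.37, adjusted p = 0.838). The first was 0.25 without δKO replicate 1 and 0.15 with genes detected as a covariate. Herc6, the ligase that attaches Isg15 in the mouse, ran from 23.7 to 26.9 CPM in TKO, 15.1 to 21.7 in WT and 4.42 to 17.7 in δKO, with TKO above both controls. Of its exon bases, 13.7% overlap another annotated gene. Parp9 and its partner Dtx3l, a ubiquitin ligase, overlap each other on opposite strands, and the library kit does not mark strand, so that some of their reads cannot be told apart. Parp9 lay above all δKO libraries in TKO and Dtx3l did not.

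The remaining 7 genes were all above 0 in TKO against WT (51.2% of all genes were), with log2 fold changes between 0.05 and 1.28 (median 0.41), and none passed the test. In TKO against δKO, 4 of the 7 were above 0 and 3 below (median 0.20), where 47.2% of all genes were above 0. Rtp4, a Golgi chaperone known to restrain the interferon response (chromosome 16, 23520291 to 23614222), was at 6.47, 8.59 and 14.5 CPM in WT replicates 1, 2 and 3, at 9.57, 8.78 and 22.7 CPM in δKO replicates 1 and 2 and the unnumbered library, and at 9.79, 48.0 and 14.1 CPM in TKO replicates 1, 2 and 3. TKO replicate 2 was highest, and the other TKO libraries lay within the range of WT. The log2 fold change of Rtp4 was 1.28 in TKO against WT (SE 0.68, adjusted p = 1.00), 0.81 in TKO against δKO (SE 0.67, adjusted p = 0.698) and 0.48 in δKO against WT (SE 0.67, adjusted p = 0.904). Without TKO replicate 2 the first was 0.28. Lgals3bp, a secreted glycoprotein, ran from 212 to 269 CPM in TKO, 168 to 188 in WT and 119 to 188 in δKO, and was with Ifitm1, Ifitm3 and Herc6 one of the members whose TKO libraries lay above those of both controls. Of all genes, 6.88% lay above all WT libraries in TKO and 6.98% above all δKO libraries. The share of all genes above both was not counted. Ifi44, Ifi27, Ifi35, Xaf1 and Samd9l overlapped between the groups in all comparisons.

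The members did not move as a block across libraries. TKO replicate 2 held the highest of the 9 values for 16 members (39.0%, where it did for 13.4% of all genes tested), and δKO replicate 1 for another 16 (39.0%, against 23.7%). The genes highest in TKO replicate 2 included Isg15, Usp18, Ifitm1, Oasl2, Ddx58, Zbp1 and Rtp4, and those highest in δKO replicate 1 included Irf7, Stat2, Adar, Parp14, Samd9l, Cmpk2, Oas1a and Mx1. The unnumbered δKO library held the lowest value for 19 members (46.3%, against 19.7% of all genes), among them Oas2, Oas3, Rsad2, Ifitm1, Ifitm3 and Mx1. No WT library held the highest value of any member except Ly6e, which was highest in WT replicate 1.

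The median over the members of the centered level, log2(CPM + 0.5) minus the mean of the 9 libraries, also set these libraries apart. It was −0.34, 0.05 and 0.07 in WT replicates 1, 2 and 3, 0.37, −0.10 and −0.54 in δKO replicates 1 and 2 and the unnumbered library, and 0.02, 0.55 and 0.15 in TKO replicates 1, 2 and 3. These medians averaged −0.07 ± 0.23 over the WT, −0.09 ± 0.45 over the δKO and 0.24 ± 0.28 over the TKO libraries (SD, n = 3), and the δKO libraries covered the range from the lowest to the second highest. For all genes tested the same median ran from −0.23 to 0.02. The spread within a genotype, as the median over genes of the SD of log2(CPM + 0.5), was 0.45 for the members and 0.39 for all genes in WT, 0.76 and 0.74 in δKO, and 0.43 and 0.50 in TKO. δKO replicate 1 and the unnumbered δKO library also had the fewest genes detected, and they had under 10 counts for 4 and 5 members, where no other library had more than 1. Of all genes tested, 26.8% and 22.6% had under 10 counts in these libraries and 6.31% to 16.9% in the others. Adding genes detected as a covariate moved the members' median log2 fold change from 0.252 to 0.586 for TKO over δKO. The same covariate moved it from 0.113 to −0.309 for δKO over WT and from 0.40 to 0.266 for TKO over WT. Filtering at 10 counts in every library gave 0.298, 0.039 and 0.37 in the same order. Whether low detection caused these shifts was not tested.

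**Figure D4:**
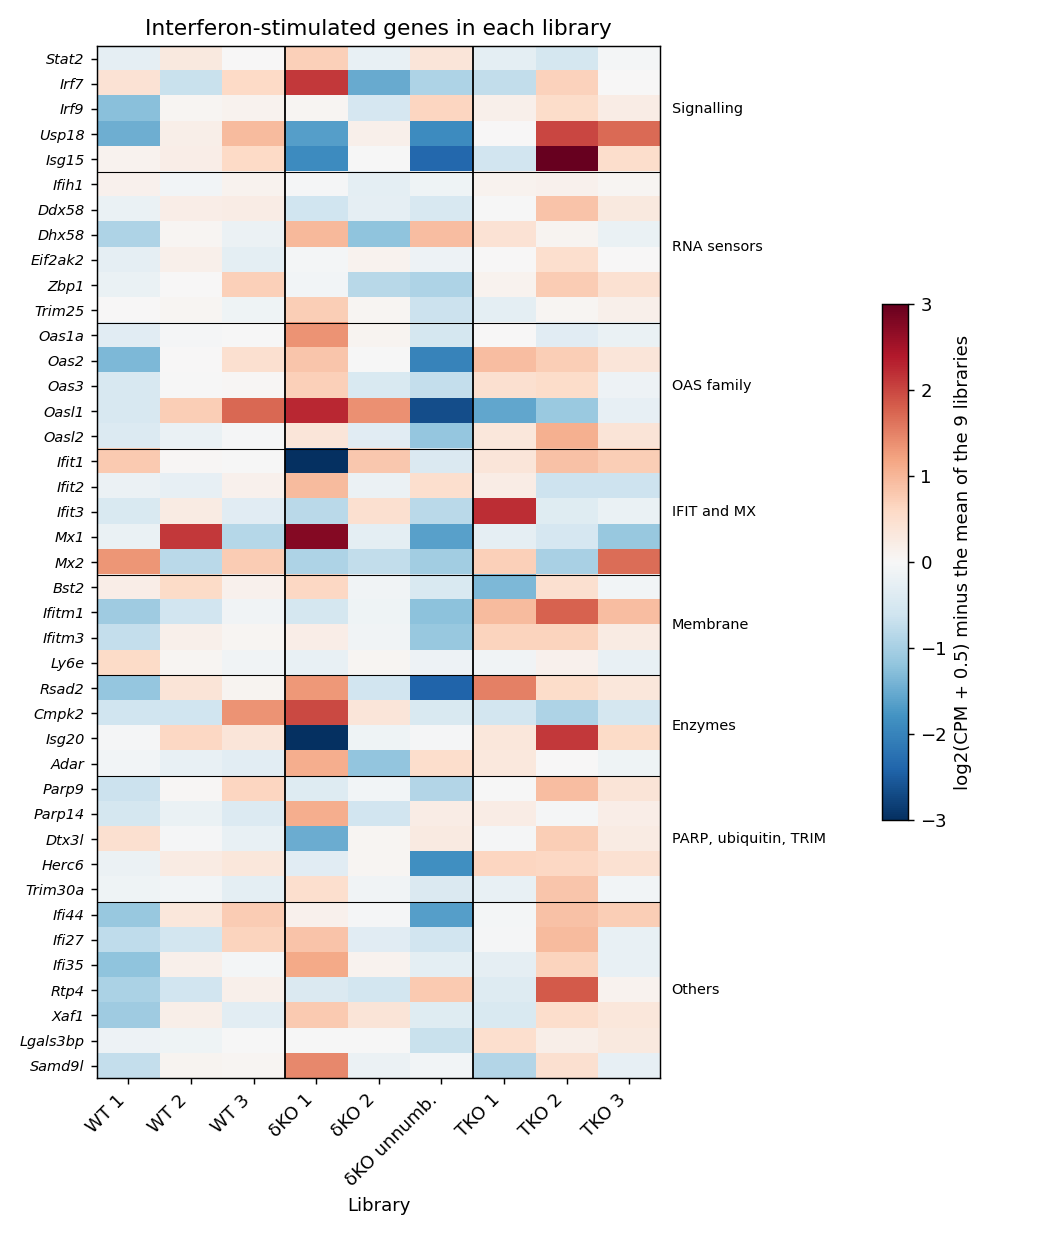
Heat map of the 41 genes, ordered by role, in the 9 libraries, with color for log2(CPM + 0.5) minus the mean of the 9 libraries of that gene, cut at 3 in both directions. δKO replicate 1 and TKO replicate 2 are the highest for different genes, and the unnumbered δKO library is low for many.

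**Figure D5:**
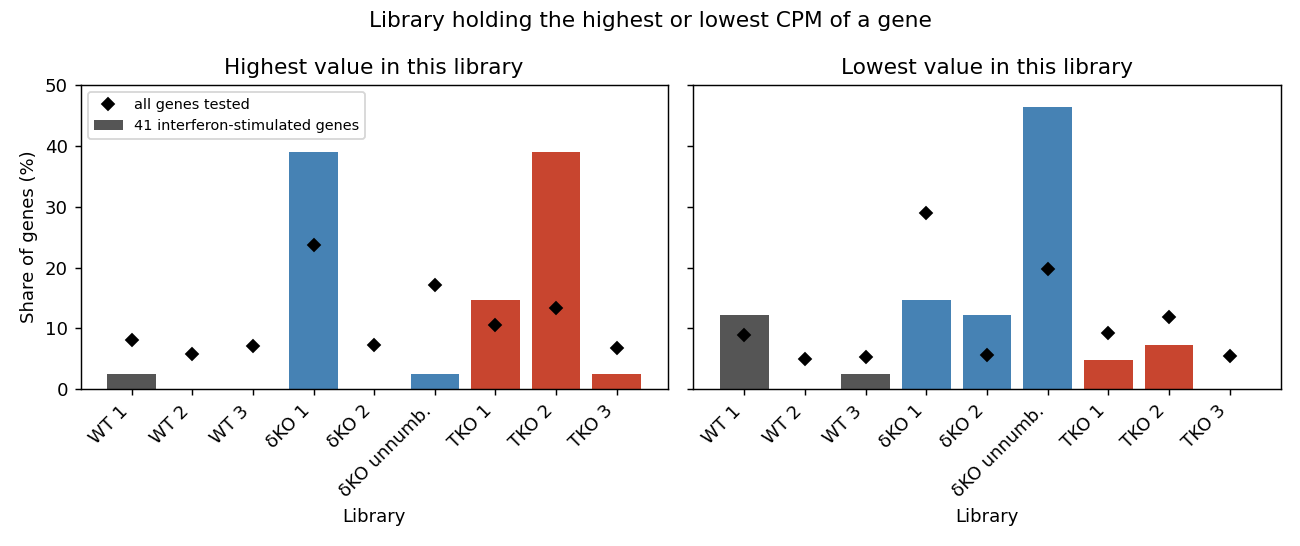
Share of genes, in percent, whose highest (left) or lowest (right) CPM of the 9 libraries was in a given library, with bars for the 41 genes and diamonds for all genes tested. The bars of δKO replicate 1 and TKO replicate 2 reach 39.0% on the left, and that of the unnumbered δKO library 46.3% on the right.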

How the data were processed

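The authors trimmed reads with Trim Galore 0.3.7, aligned them to mm10 and counted them per gene with STAR 2.5.1b, and deposited raw counts, which were used here; how the 2 technical runs of a library were joined and the annotation are not given in the sources used here. A normalized signal was not used. The RNA was amplified with the Ovation RNA-Seq System V2. Genes were named through Ensembl identifiers (47224 of 47643 matched). edgeR 4.0.16 in R 4.3.3 kept genes with filterByExpr (count minimum 10, total 15), scaled them with TMM factors and fitted its quasi-likelihood model to all 9 libraries with 1 mean per genotype (residual df 6, common BCV, the coefficient of variation between libraries, 0.805). Depth limits genes of few counts, and elsewhere the spread between libraries sets the precision. Exon lengths, overlaps and shared 50-base words came from GENCODE on GRCm38. DESeq2 1.42.0 was an alternative, and the script was tested on simulated data. Figures were drawn with matplotlib 3.10.9.

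The 41 genes, the pathway and marker lists and the rules below were chosen with earlier results of these data known. Values per library are given for the 4 members with the smallest p in each comparison, the 3 highest and 2 lowest per length, and Mx1, Mx2, Usp18, Stat2, Irf9 and Irf7. Genes of the pathway list that are not named are included in its counts, and their values are not reported here. Other members named were chosen after their values were seen. The alternatives were RLE and upper-quartile factors, no filter, 10 counts in every library, the groups compared, DESeq2, genes detected as a covariate, the replicate block, adjusted p alone and each library left out, and, added after the data were seen, Xist class as a covariate.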

Additional observations from a re-analysis of the deposited data

How the results depend on the processing

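The count of called members was 0 in all 3 comparisons under every alternative but DESeq2, on all 9 libraries and on the groups compared, which called 1 member (Ifitm1) in TKO against WT and 1 in TKO against δKO. The median log2 fold change of the members kept its sign in TKO against WT and in TKO against δKO under all 19 alternatives. With each library left out, it ranged from 0.117 to 0.489 in TKO against WT and from 0.046 to 0.516 in TKO against δKO, lowest in both without TKO replicate 2. With genes detected as a covariate, it was 0.266 in TKO against WT and 0.586 in TKO against δKO, with 30 members above 0 in each. In δKO against WT it ranged from −0.259 (without δKO replicate 1) to 0.264 with each library left out. It was −0.309 there with genes detected as a covariate and −0.192 with Xist class as a covariate, so no direction is given. The cause was not tested. Filtering at 10 counts in every library left 34 members. DESeq2 gave no value for 1 member in each comparison, which was Irf7 in δKO against WT on the groups compared and Ifit3 in the others.

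Nothing in the labels pairs libraries by replicate number. The correlations of same-numbered deviations lay between −0.036 and 0.083, and those of libraries with different numbers between −0.092 and 0.087. Such correlations cannot exclude that libraries of 1 number share an origin. With the replicate block over the 8 numbered libraries, the medians were 0.389, 0.184 and 0.240 for TKO against WT, for TKO against δKO and for δKO against WT, and 0 members were called. Groups of 3 libraries give an exact two-sided permutation p of at least 0.1, so single genes rest on the fit across all genes.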
